A study of Mus musculus with 4 samples.

Results

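The 8 genes described here, Myc, Ptprb, Plcg1, Pik3ca, Hras, Nras, Braf and Pot1a, are recurrently altered in angiosarcoma, a malignant tumour of endothelial cells, or belong to the RAS and PI3K pathways that other vascular tumours activate. They were chosen by symbol from knowledge of these tumours, not by their levels, though earlier results of these data were known. All 8 were found among the 24346 genes of the deposited table. RNA was measured in endothelial cells purified by flow cytometry from the hearts of mice labelled young, on a C57BL/6 background, and labelled as taken fresh from the tissue, with no tumour in any label. ECp53KO (2 libraries, ECp53KO_170 and ECp53KO_172) is taken as an endothelial knockout of p53, since the series title names endothelial p53. Ctrl (2 libraries, Ctrl_178 and Ctrl_182) is labelled wild type. The labels name neither the promoter that drives the deletion nor the deleted exons, and do not say that each library is a separate mouse. The p-values therefore rest on spread between libraries, which may not be spread between mice. For each gene that spread is estimated in part from all tested genes. All levels are FPKM, fragment counts scaled to transcript length and sequencing depth, as the authors deposited them.

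In human angiosarcoma these genes are hit by amplification (MYC), by loss of function (PTPRB, POT1) or by activating mutation (PLCG1, PIK3CA, RAS genes and BRAF), so a changed sequence or copy number, and not only a changed transcript level, marks the tumour. PTPRB, also called VE-PTP, is an endothelial receptor phosphatase that restrains the receptors TIE2 and VEGFR2. VEGFR2 signals through phospholipase C gamma 1 and protein kinase C to RAF and ERK, and through PI3K to AKT, while MYC drives growth and POT1 caps telomeres. p53 normally stops cells that carry such alterations, and the comparison asks whether loss of p53 alone moved the transcripts of these genes in young hearts.

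The promoters of Hras, Nras and Pik3ca are shown. In FPKM as deposited, Hras and Pik3ca were higher in both ECp53KO libraries than in both controls while Nras was not. Pik3ca holds the p53 half-site among them. Pot1a, also higher in both ECp53KO libraries, had no p53 half-site in its promoter and is not shown. Whether the motifs bear on the levels was not tested. Each line gives the 250 bases before the RefSeq transcript start (GRCm38.p6), 5′ to 3′ on the strand of the gene. For Pik3ca the bases that follow were not found in its GENCODE M21 transcripts, so its start is uncertain. Hras lies at chr7:141194005-141194254 (minus strand), with its last 15 bases inside a longer annotated transcript, Nras at chr3:103058035-103058284 and Pik3ca at chr3:32396815-32397064 (both plus strand). Capitals mark the GC box in Hras, the E-box in Nras and the p53 half-site in Pik3ca.
Hras: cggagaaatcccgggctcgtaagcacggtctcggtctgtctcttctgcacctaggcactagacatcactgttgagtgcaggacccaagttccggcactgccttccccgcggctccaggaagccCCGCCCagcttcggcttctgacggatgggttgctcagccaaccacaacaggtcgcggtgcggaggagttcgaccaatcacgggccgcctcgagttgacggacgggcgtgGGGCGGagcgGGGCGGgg
Nras: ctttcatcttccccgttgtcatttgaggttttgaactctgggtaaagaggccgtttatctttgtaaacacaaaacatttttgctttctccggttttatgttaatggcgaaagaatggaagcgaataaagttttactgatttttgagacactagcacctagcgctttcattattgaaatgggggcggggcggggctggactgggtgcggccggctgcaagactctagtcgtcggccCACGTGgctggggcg
Pik3ca: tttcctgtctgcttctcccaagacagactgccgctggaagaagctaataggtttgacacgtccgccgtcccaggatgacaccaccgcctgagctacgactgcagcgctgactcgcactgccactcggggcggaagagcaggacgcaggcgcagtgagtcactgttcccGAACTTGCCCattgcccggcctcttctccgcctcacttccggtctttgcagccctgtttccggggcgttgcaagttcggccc

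RefSeq's promoter table held 6 of the 8 genes, all but Myc and Ptprb. Of the stretches not shown, the last 195 bases in Braf and 59 in Pot1a lie inside the annotated gene. Motifs were sought on both strands. A GC box, spelled GGGCGG and known to be bound by SP1, was found in all 6 promoters, with 3 in Hras, 2 overlapping each other in Nras and 1 in each of Plcg1, Pik3ca, Braf and Pot1a, and 32.7% of 32851 promoters of the same length held it. An E-box, spelled CACGTG and known to be bound by MYC with its partner MAX, was found in Nras alone of the 6, and 6.02% of all promoters held it. A p53 half-site was found in Pik3ca alone (7.13% of all promoters). The core site of ETS factors, spelled CCGGAAG, was also found in Pik3ca alone, and in 6.91% of all promoters. The CCAAT box was found in Hras and Plcg1 (33.8% of all promoters). These are matches of letters and not measured binding sites. Apart from the GC boxes of Nras, no matches overlapped.

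Estimated depth was 9800000 to 22500000 fragments, with Ctrl_182 the deepest. The FPKM of all genes summed to 732051 in ECp53KO_170, against 603783 in ECp53KO_172, 617026 in Ctrl_178 and 609366 in Ctrl_182. FPKM values and sums given here are not rescaled to equal totals. Trp53, the targeted gene, stood at 4.41 and 2.45 FPKM in the ECp53KO libraries and at 52.1 and 28.8 FPKM in the controls. Its limma adjusted p was 0.146, and it fell under 0.05 with small RNA loci left out (0.0124), with robust shrinkage (0.0412) and with Xist as a covariate (0.0208), against 0.0710 to 0.620 under the other alternatives. The 12 endothelial markers summed to between 6385 and 6736 FPKM, with 5 positive and 7 negative fold changes. In both ECp53KO libraries 4 were higher (background 19.1%) and 4 lower (background 16.8%). Those with the smallest p were Vwf, at 19.5 and 22.8 against 28.3 and 27.4 FPKM, and Tek, at 206 and 181.5 against 148 and 150 FPKM. Library ECp53KO_170 stood apart, with erythroid and platelet markers summing to 422 FPKM and cardiomyocyte markers to 359 FPKM (181.8 to 199 in the other libraries). Relative to the other libraries its values also fell with transcript length (a Spearman rho of -0.25 over 10933 genes, and genes are not independent replicates). In RNA from sorted pools, fewer cells of a type and less RNA per cell cannot be told apart.

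The summed markers of 2 groups of other cell types were higher in both ECp53KO libraries. Pericyte and smooth muscle markers summed to 156 and 131 against 86.7 and 107 FPKM, with 8 of 8 tested fold changes positive, and 2 were at an unadjusted limma p under 0.05 (background 1.97%), the contractile genes Acta2 (21.3 and 16.8 against 7.73 and 9.78 FPKM) and Tagln (23.0 and 17.2 against 10.9 and 11.7 FPKM). Erythroid and platelet markers summed to 422 and 91.0 against 67.6 and 38.0 FPKM, with 5 of 7 tested higher in both ECp53KO libraries (background 19.1%) and 3 at an unadjusted limma p under 0.05. Their median log2 fold change was 1.15 (0.40 without ECp53KO_170 and 1.81 without ECp53KO_172). The near-identical globin genes Hba-a1 (49.5 and 28.1 against 20.6 and 12.9 FPKM) and Hba-a2 (96.4 and 3.97 against 0.387 and 0.136 FPKM) had the smallest p, and how reads were split between them is uncertain. Cardiomyocyte markers had 7 of 8 positive but 3 of 8 without ECp53KO_170, with Actc1 at 25.5 and 21.9 against 19.4 and 13.7 and Myl2 at 145 and 81.1 against 81.8 and 66.0 FPKM. Leukocyte markers were low, with Cd3e of T cells listed at 0 and Ptprc at no more than 0.11 FPKM, while the myeloid genes Lyz2 (2.52 to 3.19 FPKM), S100a8 (0.433 to 6.47 FPKM) and Cd68 (0.307 to 4.31 FPKM) were detected throughout. Fibroblast markers (29.5 to 32.9 FPKM) moved both ways, with Dpt at 3.07 and 2.55 against 1.78 and 1.3 and Postn at 1.22 and 1.93 against 3.81 and 2.26 FPKM. Of the lymphatic markers, Lyve1 stood at 2.4 and 3.0 against 3.85 and 5.44 and Ccl21a at 13.6 and 13.6 against 13.7 and 9.25 FPKM. In these lists 0 genes passed the limma test with adjustment in the main fit over all 4 libraries, and their part in the values of the 8 genes was not tested.

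No member passed the test of ECp53KO against Ctrl. Under limma on log2(FPKM + 1), with adjustment over 11332 genes, 0 of the 8 had an adjusted p under 0.05 (background 0.115% of genes), and 0 had an unadjusted p under 0.05 (background 4.78%). Both ECp53KO libraries were above both controls for Hras, Pik3ca and Pot1a (3 of 8, background 19.1%) and below both for Myc and Braf (2 of 8, background 16.8%). Together 5 of 8 had no overlap between groups, against 35.9% of all tested genes. Overlap was scored on FPKM as deposited, where ECp53KO_170 had the largest total, and was not scored again on rescaled values. A p that misses the threshold does not show that levels were equal, so the 95% interval of each difference is given below.

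**Figure D1:**
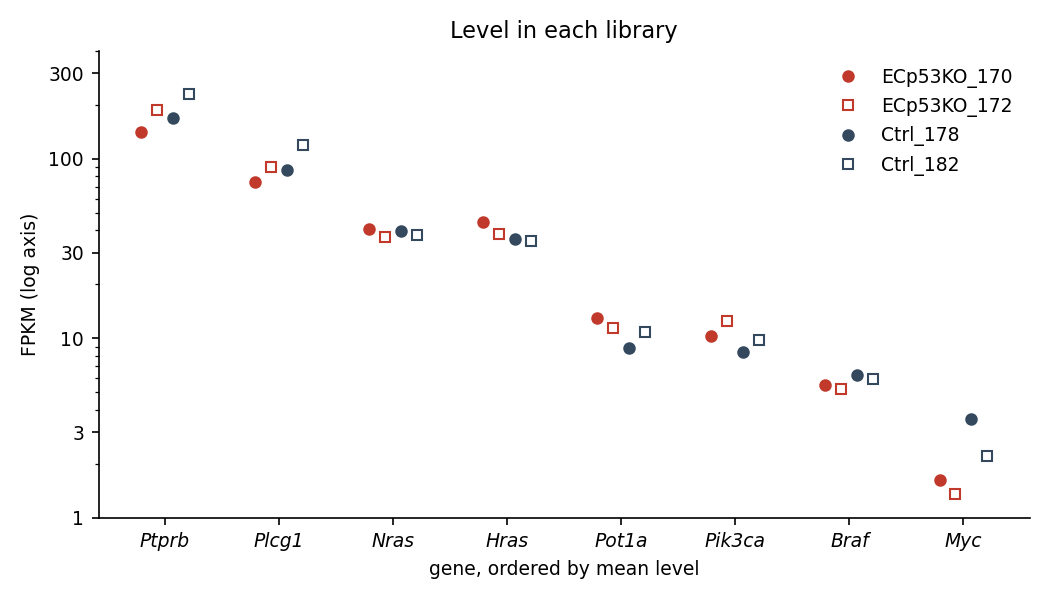
Level of each of the 8 genes in each library, in FPKM on a log axis, ordered by the mean over the 4 libraries; red marks are ECp53KO and dark marks Ctrl. The highest library is 1.11 to 1.62 times the lowest for every gene but Myc (2.61 times), whose ECp53KO libraries sit at 1.63 and 1.36 FPKM and whose controls sit at 3.56 and 2.22 FPKM.

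The genes spanned a wide range of levels. Ptprb had the highest mean (181 FPKM, above 98.0% of the table's genes), followed by Plcg1 (92.7), Nras (38.6), Hras (38.4), Pot1a (11.0), Pik3ca (10.2), Braf (5.73) and Myc (2.19 FPKM, above 58.1%). Ranges over the 4 libraries did not overlap between Ptprb and Plcg1, Plcg1 and Nras, Hras and Pot1a, Pik3ca and Braf, or Braf and Myc. They overlapped for Nras and Hras (36.6 to 40.5 and 35.0 to 44.7 FPKM) and for Pot1a and Pik3ca (8.80 to 13.0 and 8.35 to 12.5 FPKM), so the order within those pairs is not resolved.

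Ptprb, on chromosome 10 (116275502 to 116389538, GRCm38), measured 141 and 188 FPKM in the ECp53KO libraries, the lower in ECp53KO_170, and 168 and 229 FPKM in the controls, the higher in Ctrl_182. The lowest and the highest library differed by 1.62 times and the groups overlapped. ECp53KO averaged 164 ± 32.9 and Ctrl 199 ± 42.7 FPKM (SD, n = 2 each). The log2 fold change was -0.27 ± 0.25 (SE), with a 95% interval of -0.90 to 0.36 (limma adjusted p = 0.872). It was -0.07 without ECp53KO_170 and -0.05 without Ctrl_182, but -0.47 without ECp53KO_172 and -0.49 without Ctrl_178. With the length trend of each library removed it was -0.16. The small nucleolar RNA locus Gm26495 lies within Ptprb.

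The receptors that VE-PTP restrains were high in every library. Tek, which encodes TIE2, stood at 206 and 181.5 FPKM in ECp53KO against 148 and 150 FPKM in Ctrl, with both ECp53KO libraries above both controls (limma log2 fold change 0.38 ± 0.17 SE, adjusted p = 0.864). Angpt2, which encodes a ligand of TIE2, stood at 9.14 and 11.9 against 8.74 and 7.05 FPKM. Kdr, which encodes VEGFR2, stood at 631 and 608 against 573 and 435 FPKM, again without overlap (adjusted p by limma 0.864). The VE-PTP partner list had 3 of 7 tested genes with a positive fold change, the 3 just named, and 4 with a negative one. Its median was 0.00, and the median over all tested genes was 0.01. Those 3 genes were higher in both ECp53KO libraries (background 19.1%). This holds for FPKM as deposited, with the larger total of ECp53KO_170, and was not scored on rescaled values. After rescaling to TPM the list had 3 positive and 4 negative fold changes and a median of -0.12, where all tested genes had -0.097. Cdh5, which encodes VE-cadherin, was lower in both (982 and 958 against 1098 and 1022 FPKM, background 16.8%).

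Other receptor tyrosine phosphatases were expressed beside Ptprb at lower levels. Of 16 in the table, 9 reached the level for testing, 0 passed the limma test and 0 had an unadjusted p under 0.05, and 3 (Ptprh, Ptprt and Ptprz1) were listed at 0 in every library. The tested genes had 7 negative and 2 positive fold changes, a median of -0.17, and 4 that were lower in both ECp53KO libraries (background 16.8%). Without ECp53KO_170 they were 4 negative and 5 positive, with a median of 0.01. Those with the smallest p were Ptprk (10.6 and 10.9 FPKM in ECp53KO, 16.3 and 12.4 in Ctrl) and Ptpre (3.38 and 3.92 against 5.23 and 4.29 FPKM). Ptprj, a phosphatase of the same structural class as VE-PTP, stood at 0.789 and 1.37 against 1.12 and 1.12 FPKM.

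Plcg1, which encodes the phospholipase that splits membrane phosphoinositide after VEGFR2 activation (chromosome 2, 160731310 to 160775760), stood at 74.8 and 90.4 FPKM in the ECp53KO libraries and at 86.9 and 119 FPKM in the controls. The groups overlapped, with Ctrl_182 the highest library and ECp53KO_170 the lowest, as for Ptprb. On the log2 scale the difference was -0.30 ± 0.22 (SE), with a 95% interval of -0.86 to 0.26 (limma adjusted p = 0.864). It was -0.08 without Ctrl_182, -0.17 without ECp53KO_170 and -0.53 without Ctrl_178. Plcg1 shares 5314 bases of its locus with Zhx3, and reads from the overlap cannot be assigned by strand.

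Plcg1 made up nearly all of the gamma class, with 97.1% to 99.0% of the summed FPKM of Plcg1 and Plcg2. Plcg2, the form known from blood cells, stood at 1.61 and 1.64 FPKM in the ECp53KO libraries and at 2.61 and 1.17 FPKM in the controls. Of 19 listed phospholipase C, IP3 receptor and protein kinase C genes, 12 were tested, of which 0 passed and 0 had an unadjusted limma p under 0.05, with 10 negative and 2 positive fold changes and a median of -0.08. The split was 5 negative and 7 positive without ECp53KO_170 (median 0.01), and 6 of each without Ctrl_182. The IP3 receptor gene Itpr2, which encodes a calcium channel opened downstream of this enzyme, stood at 14.0 and 16.6 FPKM in the ECp53KO libraries and at 18.5 and 19.6 FPKM in the controls. Itpr1 stood at 11.5 and 20.0 against 20.8 and 18.8 FPKM, low in ECp53KO_170 alone.

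The RAS genes encode small GTPases that pass receptor signals to RAF and PI3K. Hras (chromosome 7, 141189934 to 141194019) stood at 44.7 and 38.2 FPKM in the ECp53KO libraries and at 35.6 and 35.0 FPKM in the controls. Both ECp53KO libraries were above both controls, and the 2 ECp53KO libraries differed from each other by more than the controls did. Means were 41.5 ± 4.55 and 35.3 ± 0.390 FPKM (SD, n = 2 each). This gave a log2 fold change of 0.22 ± 0.16 (SE) with a 95% interval of -0.17 to 0.62 (limma adjusted p = 0.864). The value was 0.11 without ECp53KO_170 and 0.33 without ECp53KO_172, and 0.11 after rescaling to TPM.

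Nras (chromosome 3, 103058285 to 103067914) was the most even of the 8 genes, at 40.5 and 36.6 FPKM in the ECp53KO libraries and 39.5 and 37.8 FPKM in the controls. Its highest library was 1.11 times its lowest. The log2 fold change was -0.0049 ± 0.15 (SE), with a 95% interval of -0.38 to 0.37 (limma adjusted p = 0.995), and its sign turned without ECp53KO_172 (0.07) or without Ctrl_178 (0.03).

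Braf (chromosome 6, 39603231 to 39725658), which encodes the RAF kinase most often activated by mutation, stood at 5.52 and 5.19 FPKM in the ECp53KO libraries and at 6.25 and 5.95 FPKM in the controls. Both ECp53KO libraries were below both controls, by a small margin. The fitted log2 difference was -0.16 ± 0.17 (SE), with a 95% interval of -0.58 to 0.27 (limma adjusted p = 0.878). The long noncoding RNA Gm34389 shares 27231 bases of the Braf locus, so without strand their reads cannot be told apart there. Araf, which encodes a related kinase, was more abundant than Braf in every library, at 40.4 and 38.6 against 40.3 and 40.3 FPKM (limma adjusted p = 0.977).

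The rest of the RAS-RAF-MAPK cascade showed no call. All 30 listed genes were tested, 0 passed and 0 had an unadjusted limma p under 0.05, with 12 positive and 18 negative fold changes and a median of -0.05. Without ECp53KO_170 the split turned to 17 positive and 13 negative. The adaptor gene Shc1, which couples receptors to RAS, stood at 27.0 and 27.4 FPKM in the ECp53KO libraries and at 32.5 and 34.3 FPKM in the controls. Rasgrp3, which encodes an exchange factor that loads RAS with GTP after diacylglycerol is made, stood at 113 and 113 against 96.6 and 84.8 FPKM. Among 12 genes that ERK induces, 8 were tested, 0 passed, 0 had an unadjusted limma p under 0.05 and the median was 0.03, with 4 positive and 4 negative. Their smallest p belonged to the ERK phosphatase gene Dusp5 (4.28 and 5.31 against 8.20 and 5.86 FPKM) and the feedback inhibitor gene Spry2 (7.65 and 7.35 against 8.78 and 10.9 FPKM). In all, 3 of the 8, these among them, were lower in both ECp53KO libraries (background 16.8%). Another 2 were higher in both (background 19.1%), Dusp6 (87.2 and 68.8 against 57.7 and 65.7 FPKM) and Spry4 (22.1 and 23.7 against 19.9 and 20.3 FPKM).

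**Figure D2:**
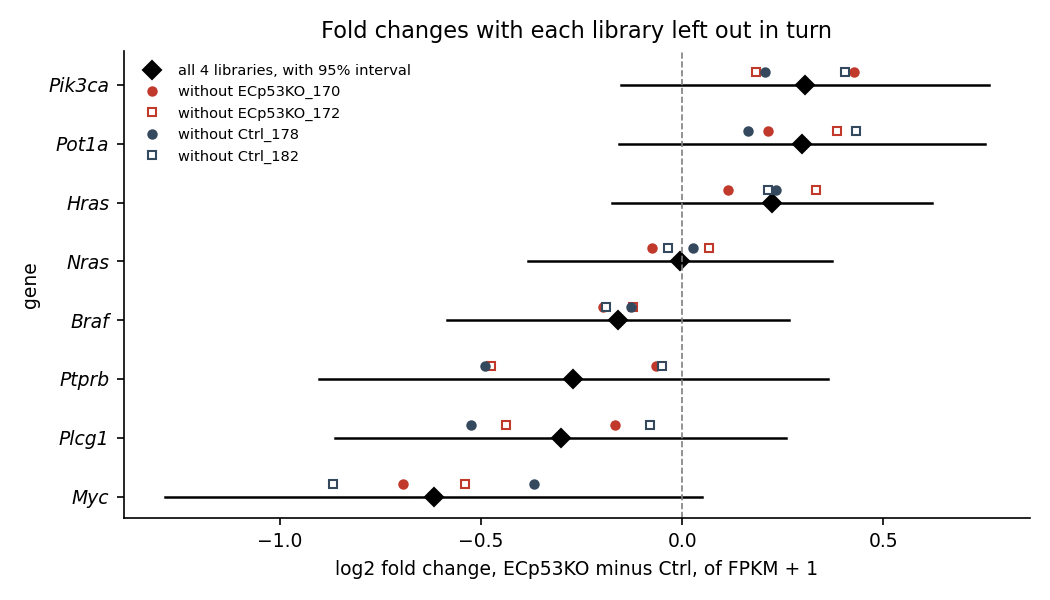
Log2 fold change of each gene, ECp53KO minus Ctrl, of FPKM + 1 (black diamonds, with 95% intervals from limma), and the same value with each library left out in turn (small marks above each line). All 8 intervals include 0, and Myc has the largest difference (-0.62), which ran from -0.87 without Ctrl_182 to -0.37 without Ctrl_178.

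Pik3ca (chromosome 3, 32397065 to 32466112), which encodes the p110-alpha catalytic subunit of PI3K, stood at 10.4 and 12.5 FPKM in the ECp53KO libraries and at 8.35 and 9.73 FPKM in the controls. Both ECp53KO libraries were above both controls in FPKM as deposited. The nearest libraries of the groups were ECp53KO_170 (10.4 FPKM), whose FPKM total was the largest, and Ctrl_182 (9.73 FPKM). Means were 11.4 ± 1.49 and 9.04 ± 0.980 FPKM (SD, n = 2 each), and ECp53KO was 1.26 times higher. The log2 fold change was 0.30 ± 0.18 (SE), with a 95% interval of -0.15 to 0.76 (limma adjusted p = 0.864). With each library's length trend removed it was 0.45 (adjusted p = 0.858 and unadjusted p = 0.0382 by limma), and without ECp53KO_172 it was 0.18. After rescaling to TPM it was 0.21 (unadjusted p = 0.451 by limma). Pik3ca shares 967 bases with Kcnmb3.

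Pik3cb, which encodes p110-beta, was the main catalytic transcript in every library. It held 55.1% to 60.2% of the summed FPKM of the class I genes, while Pik3ca held 33.7% to 39.0%. Pik3cd and Pik3cg, the forms known from leukocytes, held at most 6.45% and 2.13%. Pik3cb stood at 16.9 and 17.6 FPKM in the ECp53KO libraries and at 14.3 and 17.2 FPKM in the controls, so the groups overlapped (limma adjusted p = 0.895). Of the regulatory subunit genes, Pik3r3 was highest (20.2 and 19.4 against 20.7 and 19.2 FPKM), above Pik3r1 (6.10 and 7.27 against 7.47 and 6.60 FPKM) and Pik3r2 (5.37 and 5.51 against 4.88 and 6.17 FPKM).

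The PI3K-AKT-mTOR list had 24 of 28 genes tested, of which 0 passed, with 7 positive and 17 negative fold changes and a median of -0.08. Its 2 genes with an unadjusted limma p under 0.05 were both lower in ECp53KO (background 2.82%). These were Tsc2, which encodes a brake on mTORC1 (14.9 and 17.5 FPKM in ECp53KO, 23.9 and 22.3 FPKM in Ctrl, adjusted p = 0.864 by limma), and Foxo3, a transcription factor that AKT holds out of the nucleus (7.0 and 7.63 against 10.1 and 11.3 FPKM, adjusted p = 0.864 by limma). Without ECp53KO_170 the split of the list was 15 positive and 9 negative, with a median of 0.02 and 0 genes at an unadjusted p under 0.05.

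Myc (chromosome 15, 61985341 to 61990361), the growth-promoting transcription factor gene that is amplified in radiation-associated angiosarcoma, had the lowest level and the largest difference of the 8. It stood at 1.63 and 1.36 FPKM in the ECp53KO libraries and at 3.56 and 2.22 FPKM in the controls, with both ECp53KO libraries below both controls. Means were 1.5 ± 0.188 and 2.89 ± 0.945 FPKM (SD, n = 2 each), and Ctrl was 1.93 times higher. On the log2 scale ECp53KO minus Ctrl was -0.62 ± 0.26 (SE), with a 95% interval of -1.29 to 0.05 (limma adjusted p = 0.864, unadjusted p = 0.0632). At the median length of its transcripts (1793 bases) these levels stand for about 33 and 24 fragments in ECp53KO and 70 and 90 in Ctrl, with 95% Poisson intervals of 22.7 to 46.3, 15.4 to 35.7, 54.6 to 88.4 and 72.4 to 111, which cover counting error only.

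The size of the Myc difference depended on the control library. It was -0.87 without Ctrl_182 (unadjusted p = 0.0205, adjusted p = 0.996 by limma) and -0.37 without Ctrl_178. On a pseudocount of 0.1 FPKM, which shrinks low genes less, it was also -0.87. Myc is known as an immediate early gene, induced within a short time of a stimulus or of cell handling. Of 13 immediate early genes 4 were lower in both ECp53KO libraries (background 16.8%), 2 were higher in both (background 19.1%) and 0 passed the test. The 10 negative and 3 positive fold changes of these genes became 5 and 8 without Ctrl_182. Their sums were 5028 and 6072 FPKM in the ECp53KO libraries and 5456 and 7078 FPKM in the controls, with Nr4a1 at 75 and 121 against 157 and 221 FPKM (limma adjusted p = 0.864, unadjusted p = 0.0246) and Ier3 at 196 and 269 against 142 and 183 FPKM. The 10 leukocyte markers summed to 5.17 and 9.58 against 12.3 and 7.03 FPKM, and of 3 tested fold changes 1 was positive and 2 negative. Cd68 of macrophages stood at 0.702 and 0.307 against 4.31 and 1.08 FPKM. Csf1r, a macrophage gene too low to be tested, went the other way (0.266 and 0.178 against 0.0693 and 0.0675 FPKM). Lyz2 overlapped between the groups (3.05 and 2.52 against 2.88 and 3.19 FPKM). The part of either group of genes in the Myc values was not tested.

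Mycn, better known from neural and embryonic tissue, was the more abundant MYC gene in all 4 libraries. It stood at 8.95 and 19.7 FPKM in the ECp53KO libraries and at 16.2 and 8.95 FPKM in the controls, so each group held a high and a low library (limma log2 fold change 0.13 ± 0.44 SE, adjusted p = 0.962). Myc held 6.40% to 19.6% of the summed FPKM of the family and Mycn 78.9% to 92.2%. Mycl stood at no more than 0.328 FPKM and was not tested.

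**Figure D3:**
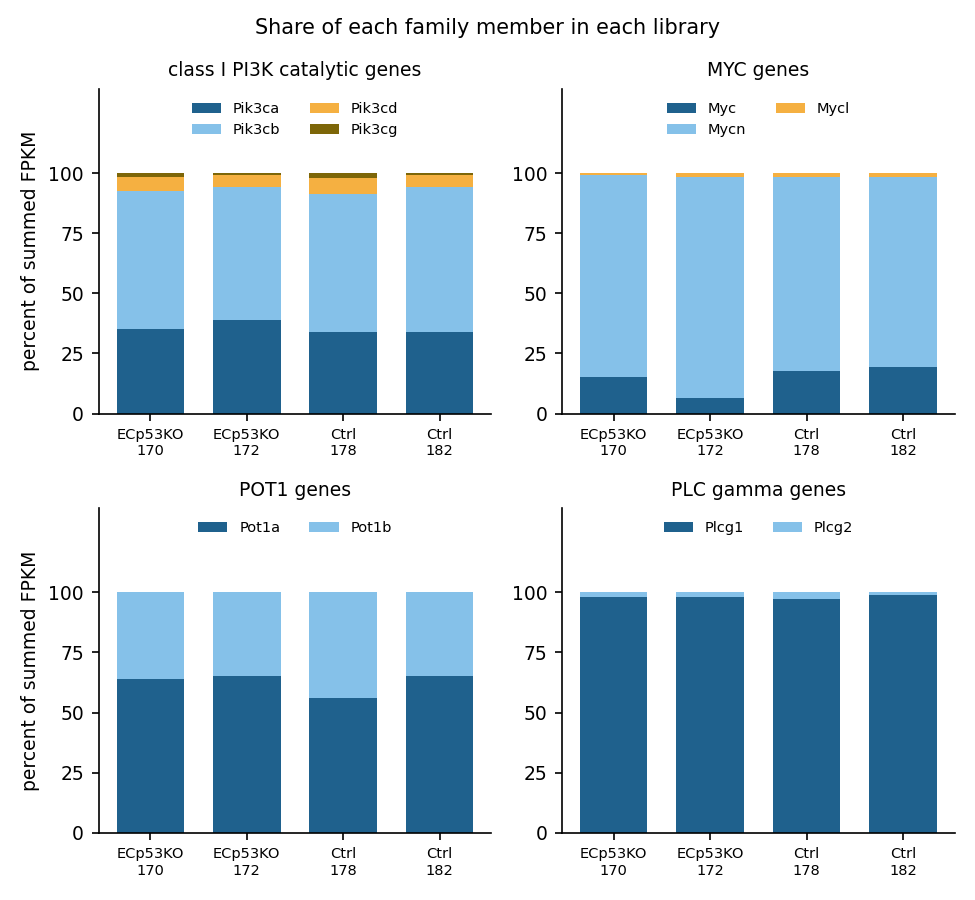
Share of each gene in the summed FPKM of its family, in percent, for each library (stacked bars). Pik3cb exceeds Pik3ca and Mycn exceeds Myc in every library, and Plcg1 makes up at least 97.1% of the gamma phospholipases.

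The MYC network, the partners and antagonists of MYC on DNA, had 12 of 13 genes tested, 0 passing, 0 with an unadjusted limma p under 0.05 and a median of -0.02. Mlxip stood at 6.69 and 14.1 FPKM in the ECp53KO libraries and at 16.3 and 20.8 FPKM in the controls, and Mxd3, which encodes a MAX partner that opposes MYC, stood at 4.24 and 3.84 against 9.83 and 5.13 FPKM. Genes of nucleolar function and growth that MYC induces had mostly positive fold changes. Of 23, 21 had a positive and 2 a negative fold change, with a median of 0.19, where 5857 of all 11332 tested genes were positive, and 8 were higher in both ECp53KO libraries (background 19.1%). By limma 0 passed, and 2 were higher at an unadjusted p under 0.05 (background 1.97%), Ppan (15.5 and 15.4 against 11.6 and 9.76 FPKM) and Rrp9 (14.6 and 9.82 against 8.01 and 6.53 FPKM), both of ribosome assembly. Positive members were 14 after rescaling to TPM, with a median of 0.08, where the median of all tested genes was -0.097. They were 13 without Ctrl_182, with a median of 0.08 (all tested genes 0.01). The median of the list was 0.40 without Ctrl_178 and 0.32 without ECp53KO_172. Without ECp53KO_170 or without Ctrl_182, 0 of them had an unadjusted p under 0.05. With the length trend of each library removed 17 were positive, with a median of 0.15. The list summed to 970 and 869 FPKM in the ECp53KO libraries and to 838 and 729 FPKM in the controls. These sums are not rescaled to equal totals, and ECp53KO_170, with 970 FPKM, had the largest total over all genes.

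Pot1a (chromosome 6, 25743940 to 25809277) encodes a mouse form of POT1, the shelterin subunit that binds single-stranded telomeric DNA. It stood at 13.0 and 11.4 FPKM in the ECp53KO libraries and at 8.80 and 10.8 FPKM in the controls, with the nearest libraries of the groups, ECp53KO_172 and Ctrl_182, close to each other. Means were 12.2 ± 1.11 and 9.79 ± 1.41 FPKM (SD, n = 2 each), and ECp53KO was 1.25 times higher. The fitted log2 difference was 0.30 ± 0.18 (SE), with a 95% interval of -0.16 to 0.75 (limma adjusted p = 0.864), and it was 0.16 without Ctrl_178.

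Mice carry a related gene, Pot1b, which stood at 7.38 and 6.10 FPKM in the ECp53KO libraries and at 6.95 and 5.74 FPKM in the controls, with overlap between the groups (limma adjusted p = 0.944). Pot1a held 55.9% of the sum of both genes in Ctrl_178 and 63.8% to 65.3% in the other libraries. How reads that match both genes were assigned is not stated in the sources used here, so this split is uncertain. Of the other shelterin and telomere genes 10 were tested, 0 passed, 0 had an unadjusted limma p under 0.05 and the median was 0.05. Ctc1, of the CST complex, stood at 3.28 and 6.71 against 6.53 and 6.72 FPKM, low in ECp53KO_170 alone. The helicase gene Rtel1 stood at 2.46 and 3.57 against 3.71 and 4.03 FPKM, and the telomerase gene Tert did not exceed 0.0789 FPKM.

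Among 27 other genes known from vascular tumours, 24 were tested and 0 passed, with 8 positive and 16 negative fold changes and a median of -0.10 (11 and 13, and -0.02, without ECp53KO_170). Only Trp53 itself had an unadjusted limma p under 0.05, and it is also the gene that passed the adjusted threshold under the 3 alternatives given above. Fosb, rearranged in pseudomyogenic haemangioendothelioma, stood at 81.4 and 102 FPKM in the ECp53KO libraries and at 106 and 133 FPKM in the controls. Flt4, which encodes VEGFR3 and is co-amplified with MYC in some angiosarcomas, stood at 29.7 and 42.7 against 47.5 and 34.5 FPKM.

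**Figure D4:**
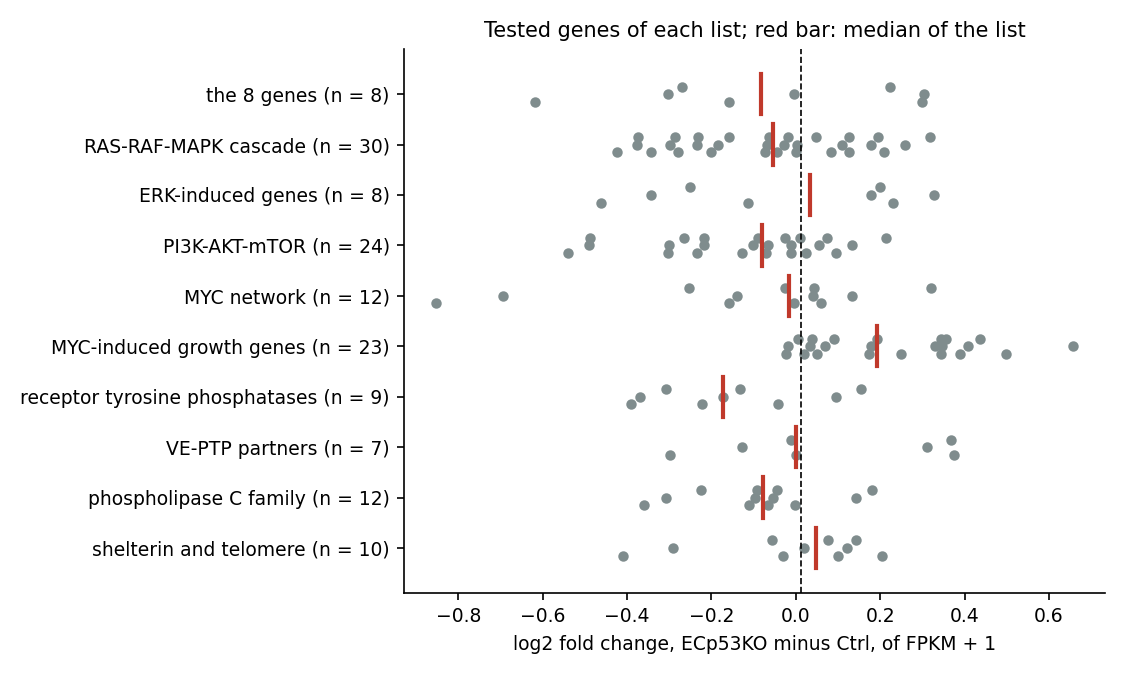
Log2 fold change, ECp53KO minus Ctrl, of each tested gene (grey points) of the 8 genes and of the lists of their pathways, with the median of each list in red and the median over all 11332 tested genes (0.01) as a dashed line. The points of most lists lie on both sides of 0, while the MYC-induced growth genes lean to higher values (median 0.19) and the receptor tyrosine phosphatases to lower ones (median -0.17). Without Ctrl_182 the median of the first is 0.08, and without ECp53KO_170 that of the second is 0.01.

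As a description of likeness, the other tested genes nearest to each member were taken by distance over the 4 libraries in log2(FPKM + 1). Nearest to Myc were Chaf1b (a distance of 0.16), which encodes a subunit of a chromatin assembly factor, Unc5a (0.17) and Ccdc184 (0.17). Nearest to Ptprb were Sorbs3 (0.22), Mxd4 (0.24) and Ablim3 (0.27), and nearest to Plcg1 were Plcb4 (0.23), 4931406P16Rik (0.26) and Sgms1 (0.29). Hras lay nearest to Isca1, Dcun1d5 and Frg1 (0.10 to 0.14), Nras to Srsf9, Add3 and Pef1 (0.05 to 0.11) and Braf to Polr3b, Dffb and Zufsp (all 0.09). Pik3ca lay nearest to Prkcd, Cul2 and Msra (0.15 to 0.16) and Pot1a to Exosc1, Rdh14 and Fbxl4 (0.07 to 0.10). With 4 libraries, such closeness is set mainly by the level of a gene.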

How the data were processed

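The values are FPKM as the authors deposited them, in 1 column per library matched to the 4 libraries by title. Tools named in the submitters' processing notes, without a role for each, are Cufflinks 2.2.1, TopHat2 2.1.0, Trimmomatic 0.36, FastQC 0.11.5 and bcl2fastq 2.17, with the build mm10. Per the labels' protocols, libraries were polyadenylated RNA kept without strand. For annotation and filters, nothing is stated in the sources used here. Without counts, a count test was not used.

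The 11332 genes that averaged 1 FPKM or more were tested as log2(FPKM + 1) with limma 3.58.1 in R 4.3.3 (intensity trend, two-sided, Benjamini-Hochberg over all of them, threshold 0.05), with 2 residual and 3.15 prior degrees of freedom. The script was tested on simulated data. An FPKM fold on this scale understates changes of low genes such as Myc. For depth, the commonest value of FPKM times length in 1037 low genes with a single GENCODE M21 transcript was taken as 1 fragment. Positions and promoters are from RefSeq, GRCm38.p6.

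The 8 genes, the lists and the tests were chosen with earlier results of these data known. Named genes are the 8, Trp53, their closest family members (not all are reported here), the 2 genes of each list with the smallest p, and the 3 nearest to each of the 8. Genes named outside this rule were chosen after seeing their values. They are Kdr, Cdh5, Flt4, Ptprc, Cd3e, S100a8, Csf1r, Dusp6, Spry4, Tert and the phosphatase genes listed at 0. Lymphatic markers summed to 46.1 to 65.4 FPKM.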

Additional observations from a re-analysis of the deposited data

How the results depend on the processing

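No member passed the adjusted threshold under any of the 11 alternatives (pseudocount 0.1, no filter, TPM, no small RNA loci, robust shrinkage, length trend removed, Xist as a covariate, and each library left out), with a lowest limma adjusted p of 0.346. Of 88 fold changes, 86 kept their direction. The exceptions were Nras without ECp53KO_172 and without Ctrl_178 (-0.0763 to 0.0665 over the fits that leave out a library). In place of 0 members at an unadjusted p under 0.05, there was 1 after rescaling to TPM, 1 without small RNA loci, 1 with robust shrinkage and 1 with the length trend removed, and 0 to 1 on leaving out a library; it was Pik3ca with the length trend removed and Myc in the others. Rescaling to TPM moved the median of all genes by -0.11. Over all genes 13 passed, against 8 with no filter, 7 without small RNA loci, 8 with the length trend removed and 31 to 59 on leaving out a library. With Xist above 1 FPKM as a covariate all 8 fold changes stayed as in the main fit while their SE changed. This requires each group to hold a library on either side of that limit, so libraries within a group differed in Xist. No paired analysis was possible, since ECp53KO and Ctrl share no replicate number by which to pair libraries. With 2 libraries a group, differences inside the printed intervals cannot be resolved.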
